A study of Mus musculus with 4 samples.

Results

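The genes described here are the ligands, antagonists, receptors, Smad proteins and Smad regulators of the transforming growth factor beta (TGF-beta) and bone morphogenetic protein (BMP) pathways. They were taken by a pattern of gene symbols that uses no measured value, though the pathway itself was picked with earlier results of these data known. Of 14884 genes with a named probe set, 41 qualified, each represented by its brightest probe set (highest mean over the 4 arrays). RNA came from SW620, a line of human colon carcinoma cells, and was hybridised to single-colour arrays. Treated cells had been exposed for 2 days to F5446 at 50 nM, a small molecule that the submitters call selective for the histone methyltransferase SUV39H1. The other cells, called Ctrl, were untreated, and each group had 2 arrays. Whether the replicates were separate cultures is not stated, so the spread behind each p-value may be partly technical. The organism field of the records names mouse, but the growth protocol and the platform's gene symbols are human, and the data were treated as human.

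Ligands of this family are secreted dimers that bring together type I and type II receptor kinases at the cell surface. Receptors for TGF-beta, activin and nodal phosphorylate SMAD2 and SMAD3, receptors for BMPs phosphorylate SMAD1, SMAD5 and SMAD9, and both sets act in the nucleus together with SMAD4. The pathway restrains itself through inhibitory Smads, ubiquitin ligases and secreted antagonists, several of which are its own target genes. In the colon, BMP signals oppose the stem cell state at the crypt base, and colon carcinomas often lose a receptor or SMAD4.

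The role lists held 69 symbols that the rule can match, of which 28 were not analysed here for want of a named probe set. Among them are TGFB1, TGFB2, TGFB3, TGFBR1, TGFBR2, BMPR1A, BMPR2, the activin subunits and ID1 to ID4, so the results cover BMP ligands, antagonists and Smads far better than TGF-beta ligands and receptors. Values are log2 signals of 1 probe set, which compare groups within a gene but not 1 gene with another. A signal was called dim where its mean lay under 4.43, the median of the means of all 53617 probe sets. Of the epithelial markers listed, 12 of 14 were measured, and 2 rose, 6 fell and 4 did not pass the test described below. In that test 18.2% of all genes rose, 22.7% fell and 40.9% passed. The 12 markers had a mean log2 signal of 6.71 and 6.64 on the F5446 arrays, against 7.42 and 7.47 on the Ctrl arrays. EPCAM had signals of 10.23 and 10.34 on the F5446 arrays, against 10.97 and 11.11 on the Ctrl arrays. The stem cell marker LGR5 fell 23.9-fold and the brush-border gene VIL1 14.7-fold, while CEACAM5 rose 3.80-fold and KRT19 1.40-fold, and KRT20 was dim on every array. Of 22 markers of fibroblasts, endothelium and immune cells, 10 were measured, and 1 rose, 3 fell and 6 did not pass, where 40.9% of all genes passed. Their mean log2 signal was 4.88 and 5.0 on the F5446 arrays, against 5.29 and 5.26 on the Ctrl arrays. Among them DCN, PECAM1, KDR, VWF and CD14 were dim on every array, while LUM, THY1, LYZ, PRF1 and CD68 were not dim in untreated cells. CD68 rose 12.9-fold, and LUM fell 8.12-fold, LYZ 3.45-fold and PRF1 6.08-fold. The part of these epithelial and other markers in the results below was not tested. In RNA from whole cultures, a change in every cell and a change in some of the cells cannot be told apart.

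Treated cells had less mRNA of the BMP ligands BMP4, BMP5 and BMP7, more of BMP6, and more of the Smad inhibitors SMAD6, SMURF1 and SMURF2. In limma's test with Benjamini-Hochberg adjustment over all 14884 genes, 11 of the 41 genes rose, 5 fell and 25 did not pass at an adjusted p of 0.05. Across all genes tested 18.2% rose, 22.7% fell and 40.9% passed in either direction, so the share of pathway genes that passed, 39.0%, lay near that of all genes. The share that rose was 26.8% and the share that fell 12.2%. Of the 41 genes, 5 passed with a rise of 2-fold or more and 4 with such a fall, as did 5.40% and 7.32% of all 14884. The groups did not overlap for 26 of the 41, with treated arrays above in 16 and below in 10. Among all genes 66.2% had such groups, 28.4% above and 37.7% below. Dim means were found for 9 of the 41, against 31.2% of all genes. The median log2 fold change was 0.068 over the pathway genes and -0.048 over all genes. Array medians of the named genes were lower by 0.13 on the log2 scale after F5446, whereas those of all probe sets were slightly higher, at 4.43 and 4.44 after F5446, against 4.40 and 4.41 in untreated cells. With the named-gene median of every array set equal, 13 pathway genes rose and 5 fell, among them all 16 above in the same direction, against 23.0% and 18.4% of all genes. Over the 41 genes, log2 differences between replicate arrays had an SD of 0.23 in F5446 and 0.18 in Ctrl, and those between arrays of different groups one of 0.87 to 0.95.

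**Figure D1:**
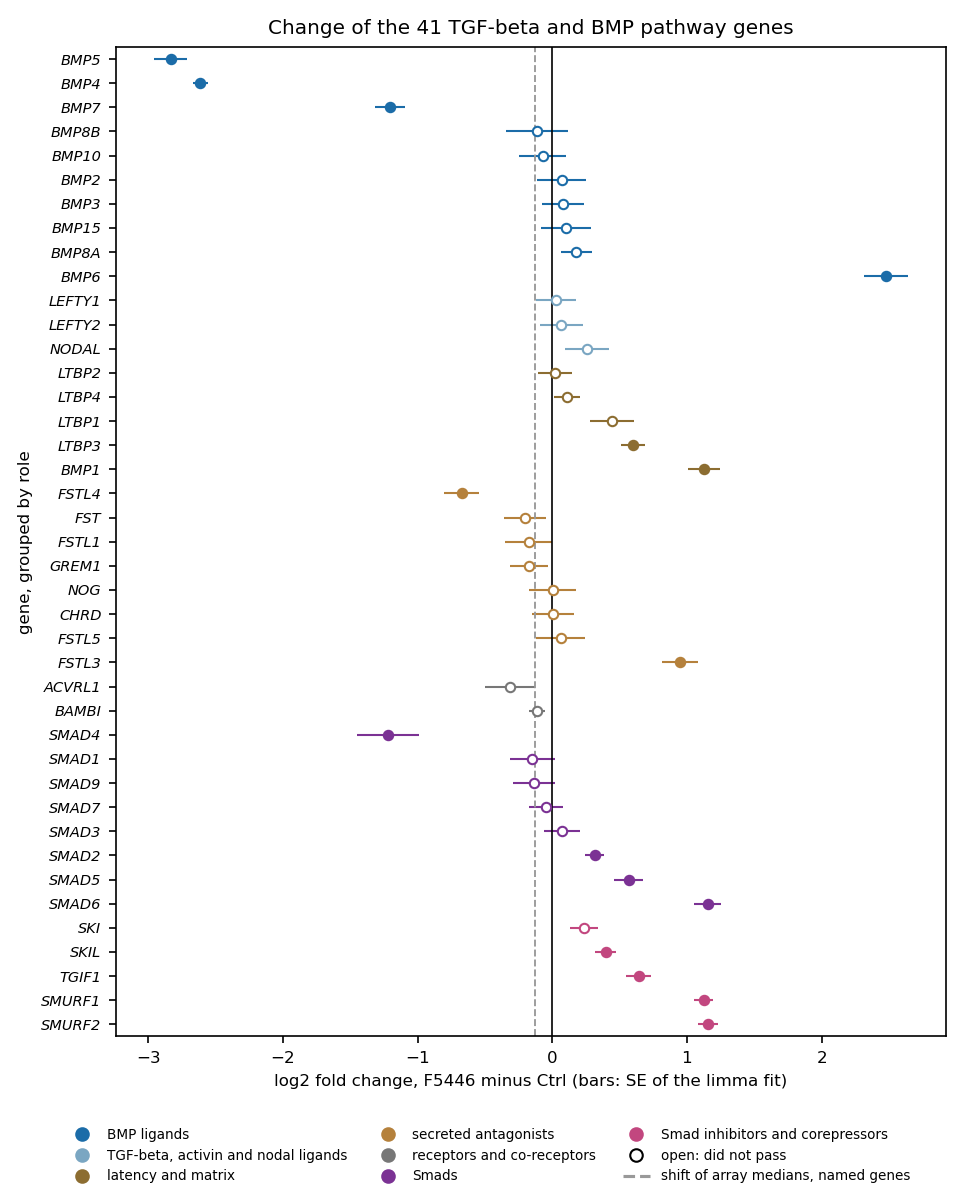
Log2 fold change (F5446 minus Ctrl, x axis) of each of the 41 pathway genes (y axis, grouped and coloured by role), with bars for the SE of the limma fit, filled points for genes that passed and open points for genes that did not. BMP5 and BMP4 lie farthest to the left at -2.83 and -2.61 and BMP6 farthest to the right at 2.48, while the dashed line marks the shift of the array medians over named genes, -0.13, a shift that the medians over all probe sets do not show.

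All 10 BMP ligand genes of the role list were measured, and 3 fell, 1 rose and 6 did not pass. Across all genes 22.7% fell, 18.2% rose and 40.9% passed, so the number of BMP ligands that passed lies near the share of all genes. BMP4 (probe set 16793129), a BMP made by colon carcinoma cells as well as by crypt mesenchyme, had log2 signals of 8.82 and 8.88 on the F5446 arrays, against 11.47 and 11.46 on the Ctrl arrays. Both treated arrays lay far below both untreated ones. BMP4 fell 6.12-fold, with means of 8.85 ± 0.041 after F5446 and 11.46 ± 0.0035 in untreated cells (SD, n = 2 each) and a log2 fold change of -2.61 ± 0.055 SE with a limma adjusted p = 9.53e-09. BMP5 (probe set 17020258), a ligand of the same subfamily as BMP6 and BMP7, had log2 signals of 4.5 and 4.55 after F5446, against 7.29 and 7.43 in untreated cells. The treated arrays sat just above the 4.43 limit, so the 7.13-fold fall (log2 fold change -2.83 ± 0.12 SE, limma adjusted p = 2.83e-07) may understate the change. BMP7 (probe set 16920585) had log2 signals of 6.49 and 6.34 on the F5446 arrays, against 7.73 and 7.51 on the Ctrl arrays. The groups did not overlap, and BMP7 fell 2.30-fold (log2 fold change -1.20 ± 0.11 SE, limma adjusted p = 2.68e-05).

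BMP6 moved the other way. This ligand, known in the liver as an inducer of hepcidin, had log2 signals of 7.16 and 7.62 on the F5446 arrays, against 4.84 and 4.98 on the Ctrl arrays (probe set 17004657). Untreated cells were close to the dim limit and both treated arrays stood clear of it. BMP6 rose 5.57-fold, with means of 7.39 ± 0.33 after F5446 and 4.91 ± 0.097 in untreated cells (SD, n = 2 each) and a log2 fold change of 2.48 ± 0.16 SE with a limma adjusted p = 2.83e-06. The treated replicates differed more for BMP6 than for BMP4 or BMP5, though by far less than the distance between the groups. BMP2, the closest relative of BMP4, was dim in all 4 arrays, at 4.05 and 4.08 after F5446, against 3.80 and 4.18 in untreated cells, and did not pass (95% interval of the log2 fold change -0.35 to 0.49). BMP10 was likewise dim throughout, and BMP3, BMP8A, BMP8B and BMP15 did not pass, with log2 fold changes between -0.11 and 0.18. The mean of BMP15 was also dim, with 3 of 4 arrays under the limit. BMP8A and BMP8B are close copies, and their probe sets may share signal.

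Of the TGF-beta, activin and nodal branch, the ligand NODAL and its secreted inhibitors LEFTY1 and LEFTY2 were measured, and none of these 3 passed. NODAL had log2 signals of 4.90 and 5.10 after F5446, against 4.62 and 4.87 in untreated cells (log2 fold change 0.26 ± 0.16, SE), with a 95% interval of -0.12 to 0.63. Its second probe set gave -0.024. LEFTY1 and LEFTY2, which are also close in sequence, had log2 fold changes of 0.030 and 0.068. The mean of LEFTY2 was dim, with 3 of 4 arrays under the limit.

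Of 5 genes of the set that act on latent or matrix-bound ligand, 2 rose, 0 fell and 3 did not pass. Across all genes 18.2% rose and 22.7% fell. THBS1, a gene outside the set that can activate latent TGF-beta, fell 8.74-fold and is given below. BMP1, which despite its name is a metalloprotease that cleaves procollagens, chordin and latent TGF-beta binding proteins, had log2 signals of 7.04 and 7.17 on the F5446 arrays, against 6.09 and 5.87 on the Ctrl arrays (probe set 17066523). The groups were apart and BMP1 rose 2.18-fold (log2 fold change 1.13 ± 0.12 SE, limma adjusted p = 5.94e-05). LTBP3, which holds latent TGF-beta in the matrix, had log2 signals of 8.57 and 8.51 after F5446, against 8.04 and 7.85 in untreated cells. It rose 1.52-fold (adjusted p = 0.00045), again without overlap. LTBP1, of the same function, was dim on every array (4.21 and 4.14 after F5446, against 3.65 and 3.81 in untreated cells). Its treated arrays lay above both untreated ones, but at an adjusted p of 0.058 it did not pass. With each array centred on its named genes it did (adjusted p = 0.020, in a range of 0.020 to 0.21 over the alternatives). LTBP2 and LTBP4 overlapped between groups, with log2 fold changes of 0.022 and 0.11.

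Among 8 genes of secreted antagonists and the follistatin family, FSTL3 rose, FSTL4 fell and 6 did not pass, where 40.9% of all genes passed. FSTL3, which binds and blocks activin, had log2 signals of 7.51 and 7.29 on the F5446 arrays, against 6.61 and 6.29 on the Ctrl arrays. The groups did not overlap, and the gene rose 1.93-fold (log2 fold change 0.95 ± 0.13 SE, limma adjusted p = 0.00034). FSTL4, a follistatin-like gene whose part in the pathway is less clear, had log2 signals of 5.25 and 5.18 after F5446, against 5.87 and 5.90 in untreated cells. It fell 1.59-fold (adjusted p = 0.0025). The BMP antagonists NOG, CHRD and GREM1 did not pass, with log2 fold changes of 0.0039, 0.0058 and -0.17 and 95% intervals of -0.39 to 0.40, -0.35 to 0.36 and -0.50 to 0.15. Neither did FST, the activin antagonist follistatin, at -0.20, nor FSTL1 and FSTL5, which were dim on all arrays.

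Only 2 of 15 receptor and co-receptor symbols were measured. BAMBI, a decoy receptor that lacks a kinase domain and is known as a Wnt and BMP target, had log2 signals of 10.27 and 10.31 after F5446, against 10.46 and 10.35 in untreated cells. The treated arrays lay a little below the untreated ones, but BAMBI did not pass (adjusted p = 0.164). Its log2 fold change was -0.11, with a 95% interval of -0.25 to 0.018. With each array centred the value was 0.012, so no direction is given. ACVRL1, a type I receptor best known from endothelium, was dim on 3 of 4 arrays and did not pass (-0.31).

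**Figure D2:**
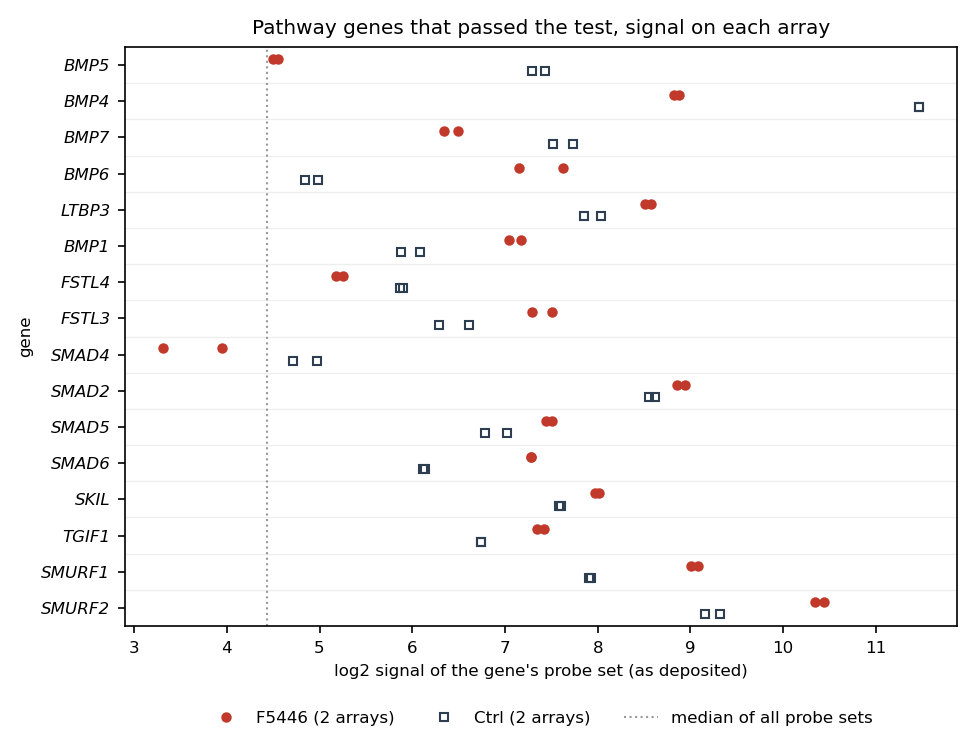
Log2 signal (x axis, as deposited) on each F5446 array (filled circles) and each Ctrl array (open squares) for the 16 pathway genes that passed (y axis, by role). In all 16 the groups do not overlap, and SMAD4 is the gene whose F5446 arrays lie below the dotted line at 4.43, the median of all probe sets.

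All 8 Smad genes were measured, and 3 rose, 1 fell and 4 did not pass, where 18.2% of all genes rose, 22.7% fell and 40.9% passed. SMAD6, the inhibitory Smad that acts mainly on BMP receptors and is itself a BMP target, had log2 signals of 7.28 and 7.28 on the F5446 arrays, against 6.12 and 6.14 on the Ctrl arrays (probe set 16802232). Replicates were almost equal and the groups far apart. SMAD6 rose 2.22-fold, with means of 7.28 ± 0.0026 after F5446 and 6.13 ± 0.012 in untreated cells (SD, n = 2 each) and a log2 fold change of 1.15 ± 0.10 SE with a limma adjusted p = 1.67e-05. SMAD7, the inhibitory Smad that acts on both branches, did not pass, with log2 signals of 5.72 and 5.73 after F5446, against 5.78 and 5.77 in untreated cells. The 95% interval of its log2 fold change was -0.33 to 0.24, which leaves out a 2-fold change either way. The difference between the SMAD6 and SMAD7 changes was not tested.

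Of the receptor-activated Smads, SMAD5 rose 1.48-fold and SMAD2 1.24-fold. SMAD5, of the BMP branch, had log2 signals of 7.44 and 7.51 on the F5446 arrays, against 7.02 and 6.79 on the Ctrl arrays (adjusted p = 0.0023). SMAD2, of the TGF-beta branch, had 8.85 and 8.94 after F5446, against 8.61 and 8.55 in untreated cells (adjusted p = 0.0066). Both genes had groups that did not overlap, but the SMAD2 call was lost without F5446 replicate 2 (adjusted p = 0.083) and without the intensity trend (0.059), in a range of 0.00076 to 0.083. SMAD1, SMAD3 and SMAD9 did not pass. Their log2 fold changes were -0.15, 0.072 and -0.13, with 95% intervals of -0.52 to 0.23, -0.23 to 0.38 and -0.50 to 0.23.

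SMAD4, the partner shared by both branches, was the Smad that fell. Its log2 signals (probe set 16852354) were 3.95 and 3.31 on the F5446 arrays, against 4.98 and 4.72 on the Ctrl arrays. The treated arrays lay below both untreated ones and under the dim limit, and the untreated ones just above it. The means were 3.63 ± 0.45 after F5446 and 4.85 ± 0.18 in untreated cells (SD, n = 2 each), a 2.33-fold fall (log2 fold change -1.22 ± 0.23 SE, limma adjusted p = 0.0020). Since the mean over all arrays was under 4.43, SMAD4 is left out when dim genes are removed. It passed in the 11 other settings, with adjusted p from 0.0015 to 0.037. The table holds no detection calls, so how much of this signal is background is unknown.

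Apart from the inhibitory Smads SMAD6 and SMAD7, given above, 5 genes of the set that limit Smad signalling from inside the cell were measured. Of these 5, 4 rose and 0 fell, where 18.2% and 22.7% of all genes did, and their median log2 fold change was 0.64. All 5 had signals above the dim limit, whereas 31.2% of all genes had dim means. These counts leave out the receptor and intracellular regulators outside the set, given below. Of those 35, 16 rose and 8 fell, with RANBP3 and EID2 among the falls. SMURF2, a ubiquitin ligase that targets Smads and receptors, had log2 signals of 10.34 and 10.44 on the F5446 arrays, against 9.15 and 9.31 on the Ctrl arrays (probe set 16847841). SMURF1, its relative that targets SMAD1 and SMAD5, had 9.0 and 9.08 after F5446, against 7.93 and 7.90 in untreated cells (probe set 17060186). Replicates lay close together in both genes and the groups did not overlap. SMURF2 rose 2.23-fold (log2 fold change 1.16 ± 0.072 SE, limma adjusted p = 2.04e-06) and SMURF1 2.18-fold (log2 fold change 1.12 ± 0.073 SE, limma adjusted p = 2.72e-06). TGIF1, a homeodomain corepressor of SMAD2, had log2 signals of 7.35 and 7.42 after F5446, against 6.74 and 6.75 in untreated cells, and rose 1.56-fold (adjusted p = 0.00049). SKIL, which encodes the corepressor SnoN and is a TGF-beta target, had 8.01 and 7.97 after F5446, against 7.61 and 7.58 in untreated cells, and rose 1.32-fold (adjusted p = 0.0034). All of these had treated arrays above both untreated ones. SKI, the relative of SKIL, also had higher treated arrays (6.76 and 6.81 after F5446, against 6.5 and 6.60 in untreated cells) but did not pass (adjusted p = 0.108). It passed with each array centred on its named genes (adjusted p = 0.020, in a range of 0.020 to 0.33).

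The 25 genes that did not pass had log2 fold changes from -0.31 (ACVRL1) to 0.45 (LTBP1). Their groups overlapped in 15, while the treated arrays lay above in 5 and below in 5. Among all genes 66.2% had groups that did not overlap, but that share includes genes that passed and is not like for like. In 8 of the 25 the mean signal was dim, and in 5 of these every array was. A gene below the detection of its probe set can hide a change, so these genes are not shown to be constant.

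Further genes of the pathway were taken from lists of ligands and extracellular regulators, of receptor and intracellular regulators, and of TGF-beta and BMP targets. Of 166 such symbols outside the 41, 108 were measured, and 33 rose, 21 fell and 54 did not pass. That is 30.6% higher and 19.4% lower, beside the 18.2% and 22.7% of all genes, with a median log2 fold change of 0.039. Dim means were found for 21 of the 108, against 31.2% of all genes. Over the 33 measured ligands and extracellular regulators 3 rose (9.09%) and 6 fell (18.2%), and 13 had dim means. GDF15, a distant family member that signals through GFRAL, had log2 signals of 10.13 and 10.00 on the F5446 arrays, against 8.13 and 8.09 on the Ctrl arrays, and rose 3.88-fold (adjusted p = 1.01e-07). GDF11, a ligand of the activin branch, had 5.81 and 5.60 after F5446, against 7.60 and 7.41 in untreated cells, and fell 3.48-fold (adjusted p = 3.53e-06). GDF15 was high and GDF11 low on both treated arrays. TWSG1, a secreted modulator that binds BMPs and chordin, fell 2.61-fold, and THBS1, which can activate latent TGF-beta, fell 8.74-fold. CRIM1, a membrane protein that binds BMPs, rose 2.25-fold, and FURIN, a protease that matures TGF-beta family precursors, rose 1.45-fold. The protease gene HTRA1 fell 1.37-fold (adjusted p = 0.0085), a call lost without Ctrl replicate 2 (0.061) or F5446 replicate 1 (0.092), in a range of 0.0050 to 0.092.

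**Figure D3:**
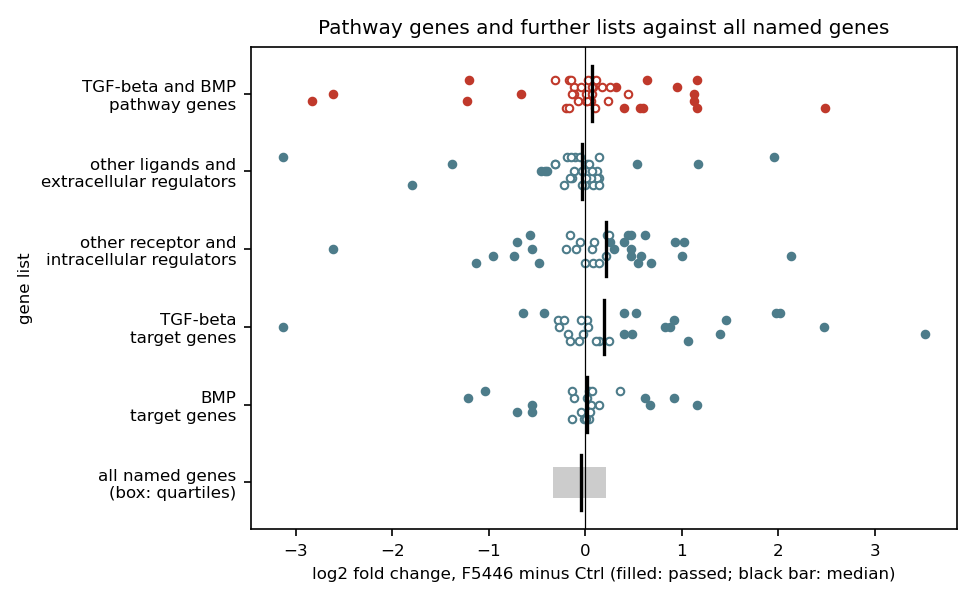
Log2 fold change (F5446 minus Ctrl, x axis) of each measured gene in the pathway genes and in 4 further lists (rows), with filled points for genes that passed, open points for those that did not and a black bar at each list's median; the grey box gives the quartiles of all named genes. The median is 0.068 for the pathway genes, 0.19 for TGF-beta targets, 0.020 for BMP targets and -0.048 for all named genes.

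Of 35 measured receptor and intracellular regulators 16 rose (45.7%) and 8 fell (22.9%), beside 18.2% and 22.7% of all genes, so the share that fell was that of all genes. These shares are not like for like. Dim means made up 5.71% of the list, against 31.2% of all genes, where 377 of 4642 dim genes passed. Their median log2 fold change was 0.21. RNF111, the ubiquitin ligase Arkadia that degrades SMAD7, SKI and SKIL, had log2 signals of 8.53 and 8.52 on the F5446 arrays, against 7.53 and 7.51 on the Ctrl arrays, and rose 2.01-fold (adjusted p = 7.48e-06). HGS, an endosomal protein that helps present Smads to receptors, rose 2.03-fold, and the coactivator gene CREBBP 1.91-fold. ZEB1, a zinc finger repressor that binds Smads, rose 4.37-fold. In the other direction, UCHL5, a deubiquitinase that acts on the type I receptor, fell 1.94-fold and PARD6A, a polarity protein that the type II receptor phosphorylates, 2.20-fold. NEO1, the receptor of the RGM co-receptors, fell 1.66-fold, and RBL1, the pocket protein p107, fell 6.10-fold.

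Of 30 measured TGF-beta target genes, which include SKIL, SMAD7 and LTBP2, 14 rose (46.7%) and 3 fell (10.0%), beside 18.2% and 22.7% of all genes. Dim means made up 6.67% of this list, against 31.2% of all genes, and few dim genes passed (377 of 4642). The shares are thus not like for like. The median log2 fold change was 0.19, against -0.048 over all genes, or 0.32 against 0.078 with each array centred. Many of these genes also respond to other signals, such as those through AP-1, so the list is not specific to TGF-beta. CCN2, a matricellular growth factor, had log2 signals of 8.42 and 8.38 on the F5446 arrays, against 6.58 and 6.28 on the Ctrl arrays. IL11, a cytokine, had 7.62 and 7.47 after F5446, against 5.38 and 5.68 in untreated cells. Both were clearly higher in treated cells, CCN2 by 3.92-fold (adjusted p = 1.31e-06) and IL11 by 4.04-fold (adjusted p = 2.80e-06). SNAI2, the repressor SLUG, rose 11.4-fold and the stress factor gene ATF3 5.54-fold. THBS1, named above, was the largest fall among the 3, followed by ADAM19 at 1.56-fold and LMCD1 at 1.34-fold (adjusted p = 0.0096). LMCD1 did not pass with each array centred (adjusted p = 0.052), without Ctrl replicate 1 (0.058) or without F5446 replicate 2 (0.093), in a range of 0.0052 to 0.093.

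**Figure D4:**
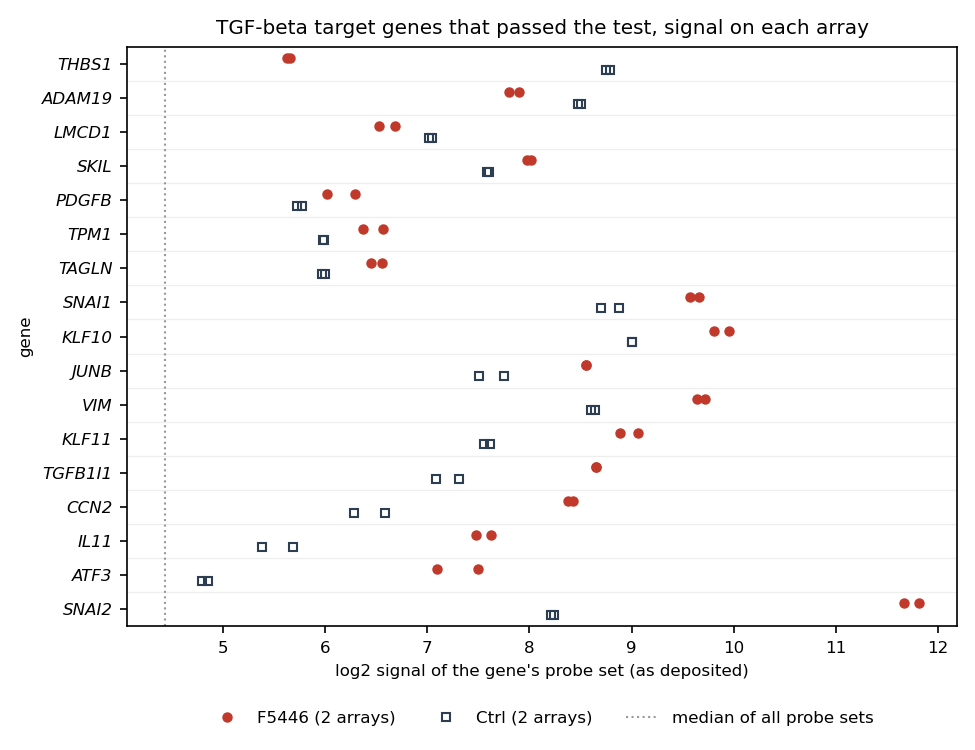
Log2 signal (x axis, as deposited) on each F5446 array (filled circles) and each Ctrl array (open squares) for the 17 TGF-beta target genes that passed (y axis, ordered by change), with a dotted line at 4.43, the median of all probe sets. The F5446 arrays lie below the Ctrl arrays for THBS1, ADAM19 and LMCD1 and above them for the other 14.

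Of 23 measured BMP target genes, which include SMAD6, SMAD7, SMAD9, BAMBI and NOG, 4 rose and 5 fell, with a median log2 fold change of 0.020. The share that passed, 39.1%, was close to the 40.9% of all genes, though dim means made up 17.4% of the list, against 31.2%. JUNB had log2 signals of 8.55 and 8.56 on the F5446 arrays, against 7.75 and 7.51 on the Ctrl arrays, and rose 1.89-fold (adjusted p = 5.03e-05). It also counts among the TGF-beta targets that rose, and RUNX2 among the intracellular regulators that rose, so the lists are not independent. The homeobox gene MSX1 rose 1.59-fold, and RUNX2, a transcription factor of bone, 1.54-fold (adjusted p = 0.0073), a call lost without F5446 replicate 1 (0.064, in a range of 0.0024 to 0.064). STMN1, which destabilises microtubules, fell 2.32-fold, PRDM16 2.06-fold, the intestinal transcription factor gene CDX2 1.63-fold and the matrix gene TNC 1.46-fold. SMAD6, at 2.22-fold, had the largest rise on this list, while BAMBI, NOG, SMAD7 and SMAD9 did not pass.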

How the data were processed

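Total RNA from 4 SW620 samples was measured on oligonucleotide arrays, 2 per group. The deposited values, 1 for each probe set on each array, were taken as log2 signal from their range (0.71 to 13.8), since no scale is named. Partek was used, per the submitters' processing notes; the sources used here do not give how background was corrected or arrays were scaled, and scaling would hide a change in total RNA per cell. A platform annotation table names 16098 of 53617 probe sets, each with 1 gene symbol, covering 14884 genes. LTBP2 and NODAL each had a second, dimmer probe set. Groups come from the sample titles. A model with group as its single term was fitted in limma 3.58.1 (R 4.3.3; lmFit, then eBayes with a trend on intensity), with two-sided p-values adjusted by Benjamini-Hochberg over 14884 genes and a threshold of 0.05. The fit was also run on simulated data with spreads from the Ctrl arrays and far fewer changed genes than passed here. That run does not gauge error rates in these data. Figures used matplotlib 3.10.9. The array number, 2 per group, limits precision.

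The members, the lists and the tests were chosen with earlier results of these data known. Every gene of the set that passed is named, and from the other lists the 4 largest rises and 4 largest falls at most, among genes whose groups did not overlap. Alternatives were both rescalings, a dim-gene filter, 2 variance models, averaging over a gene's probe sets, all probe sets, the replicate number as a block, and each array left out. Lists were described by counts and medians, with no set test.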

Additional observations from a re-analysis of the deposited data

How the results depend on the processing

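Across the 12 alternatives the pathway genes that rose numbered 10 to 13 and those that fell 4 to 5, against 11 and 5 as reported. With 1 array left out at a time they numbered 10 to 11 and 5. Of the 16 genes that passed, 15 did so in every alternative that tested them, with SMAD2 the exception and SMAD4 untested when dim genes were left out. Of the 25 that did not pass, LTBP1 and SKI passed with each array centred on its named genes, and LTBP1 also without an intensity trend (adjusted p = 0.025). Over all genes the counts were 2069 to 2431 higher and 2580 to 2891 lower with an array left out, and the split was 3420 higher and 2735 lower with each array centred, against 2714 and 3372. No alternative turned the direction of a call. The median of the pathway genes was 0.19 with each array centred and 0.035 after quantile normalization. With the replicate number as a block, 11 pathway genes rose and 5 fell, and no call among them changed. Deviations of same-numbered arrays correlated at 0.044 over all genes. With so few arrays per group, this value cannot decide whether same-numbered samples shared a culture or a batch. The other pathway genes numbered 27 to 35 higher and 15 to 21 lower.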
